A study of Mus musculus with 4 samples.

Results

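Imprinted genes are genes of which a cell mainly uses the copy inherited from 1 parent. A set of 37 of them, among 22406 genes with a name in the deposited tables, was described in mouse embryonic stem (ES) cells with and without p53, before and after DNA damage. They were chosen by gene symbol as well-known members of the imprinted clusters. The rule used no measured value, but the choice was made with earlier results of these data known. All 37 had at least 1 transcript in the tables, 70 transcripts in all. They fell into 9 clusters with several members and 7 single genes, and 17 of the 37 lie on chromosome 7.

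Imprinting is set in the germ line as DNA methylation at a control region, which is kept on the marked parental copy after fertilisation while most other methylation is erased. A control region acts on its neighbours through an insulator bound by CTCF, as between H19 and Igf2, or through a long noncoding RNA that silences genes in cis, as Kcnq1ot1 and Airn do. Many paternally expressed imprinted genes promote growth of the embryo and placenta, and many maternally expressed ones restrain it. In ES cells the marks are protected by ZFP57 with TRIM28, and they can be gained or lost during culture. The tables hold no allele information, so the expressed allele given for each gene below is textbook knowledge.

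The study compared p53+/+ and p53-/- mouse ES cells of mixed C57BL/6X129Sv strain, kept for under 20 passages in medium with serum and leukemia inhibitory factor. Each genotype was left untreated or given Adriamycin (doxorubicin, which breaks DNA by trapping topoisomerase II and thereby activates p53) at 0.5 uM for 8 h. There was 1 library in each of these 4 groups, from RNA with a poly(A) tail, so no difference below has a replicate check and none carries a p-value. How the p53-/- line was made is not given in the sources used here, and with 1 line a genotype, genotype and line cannot be told apart.

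Levels are given in FPKM, fragments per kilobase of transcript, scaled to the mapped fragments of a library, summed over a gene's transcripts. Differences are between values of log2(FPKM + 1), a scale on which changes of weakly expressed genes look smaller than they are. Genes are said to rise, fall, or be higher or lower where this difference was 1 or more in size, among genes with 1 FPKM or more in at least 1 library. That filter was passed by 33 of the 37 imprinted genes and by 13015 genes in all. Read depth over the transcripts summed to between 3.34 and 4.32 gigabases a library. Trp53, the gene for p53, was at 216 and 165 FPKM in p53+/+ cells without and with Adriamycin and at 78.6 and 76.5 FPKM in p53-/- cells. All 11 ES cell markers examined were at 1 FPKM or more in every library.

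In untreated p53+/+ cells the imprinted genes ranged from 0 to 143 FPKM, and 29 of the 37 reached 1 FPKM. The highest was Cd81, which encodes a tetraspanin of the cell surface, followed by Gnas at 110.4, Peg10 at 107, Nap1l4 at 82.4, Snrpn at 58.9 and Phlda2 at 56.9 FPKM. The 4 genes that stayed below 1 FPKM in every library were the long noncoding RNAs Airn and Kcnq1ot1, the ubiquitin protease gene Usp29 and the Ras exchange factor gene Rasgrf1. Of these, Usp29 was highest at 0.767 FPKM and Kcnq1ot1 never passed 0.0617 FPKM. Summed over all 37 genes, p53+/+ cells held 801 FPKM before and 802 FPKM after Adriamycin, and p53-/- cells 938 and 908 FPKM. Gnas ranked first in both p53-/- libraries and Cd81 in both p53+/+ libraries.

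**Figure D1:**
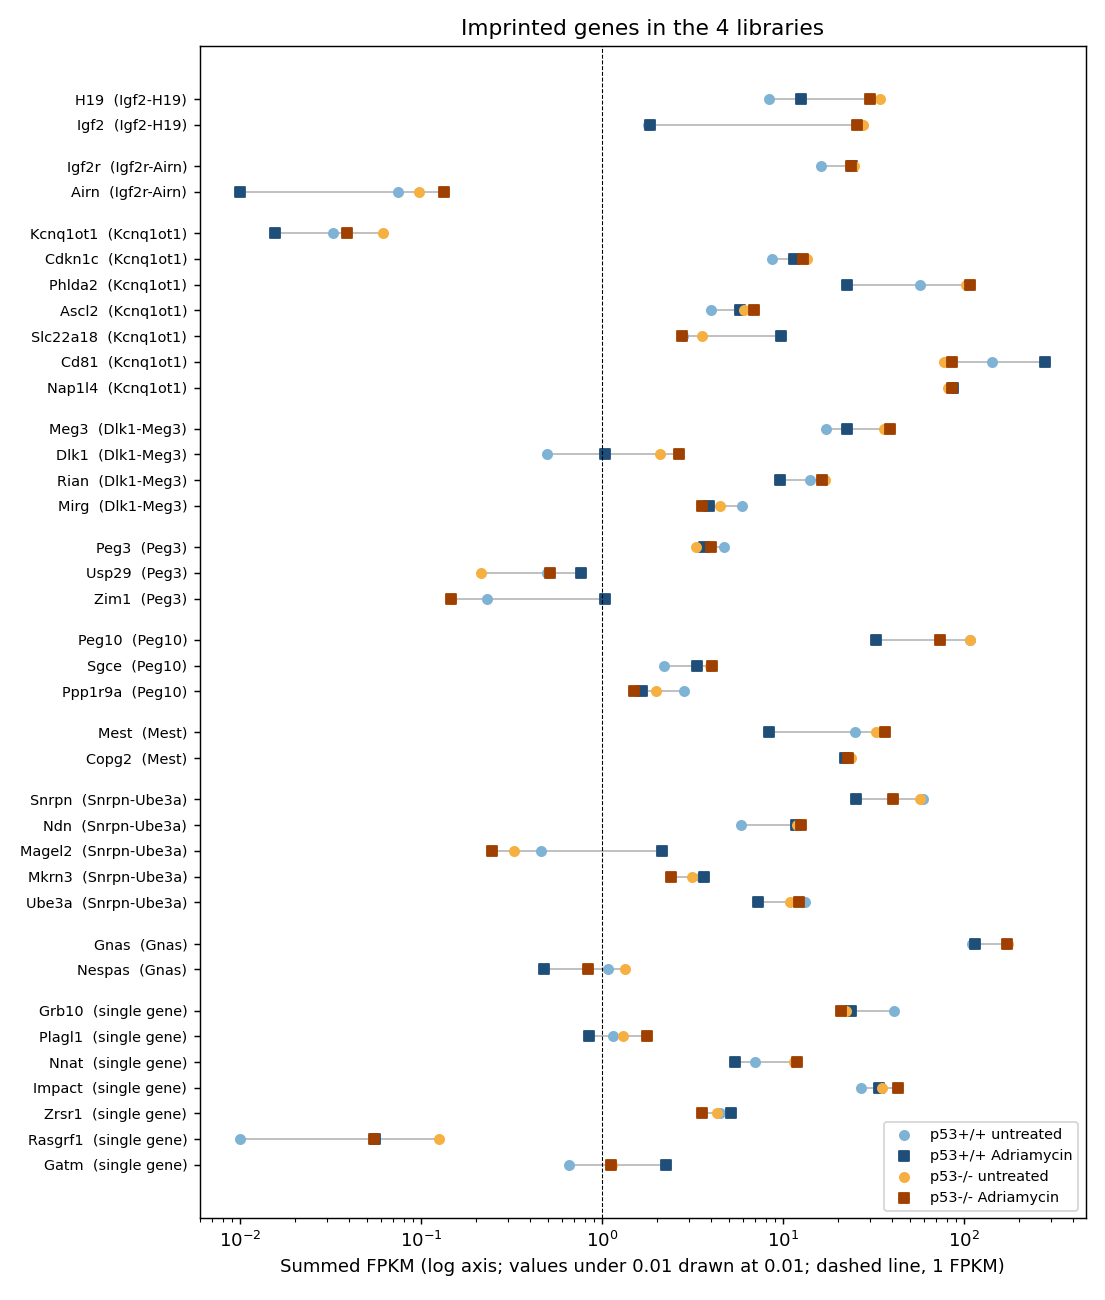
Summed FPKM of each of the 37 imprinted genes (log axis), grouped by cluster, with 1 point for each of the 4 libraries. Igf2 and H19 show the p53-/- points to the right of the p53+/+ points, while Mest, Phlda2 and Peg10 have the treated p53+/+ point farthest left.

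Adriamycin in p53+/+ cells lowered Peg10, Mest, Phlda2 and Snrpn and raised Slc22a18 and Magel2. These are 4 falls and 2 rises among the 33 genes. Over all genes past the filter, 2.78% fell and 11.4% rose. Of the 2 rises, Magel2 passed the filter through the treated p53+/+ library alone, so it could only count as a rise. Snrpn's main transcript had a low-data status, Phlda2's FPKM lay outside the bounds given with it, and Peg10's did so narrowly in 1 library. Among genes with usable status and a main transcript within its own bounds, 1 of 29 members fell (Mest). Of all such genes 2.47% did. The median difference was 0.05 for the members and 0.05 for all genes. Of the counted changes over all genes, 80.4% were rises. After quantile normalization of the libraries that share was 65.3% and the median of all genes was -0.10. The same 4 imprinted genes fell under that scaling, while among the rises Cd81 took the place of Magel2, which was at 0.71.

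Peg10, a retrotransposon-derived gene needed for the placenta and expressed from the paternal copy, stood at 107 FPKM before and 32.7 FPKM after Adriamycin in p53+/+ cells. In p53-/- cells it had 108 and 73.4 FPKM. The difference was -1.68 in p53+/+ cells and -0.55 in p53-/- cells, a 3.28-fold against a 1.47-fold lower level. Both untreated libraries were thus alike and the treated p53+/+ library was lowest. In the untreated p53+/+ library Peg10's FPKM lay just above the upper bound that the table itself gives for it.

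Mest, a paternally expressed gene for a protein of the hydrolase family, dropped from 24.9 FPKM before to 8.34 FPKM after Adriamycin in p53+/+ cells. It was at 32.6 and 36.3 FPKM in p53-/- cells. The fall was 2.99-fold in p53+/+ cells, with a difference of -1.47, and the difference in p53-/- cells was 0.15. Phlda2, a maternally expressed gene that limits placental growth, dropped from 56.9 to 22.4 FPKM in p53+/+ cells, and had 103 and 107 FPKM in p53-/- cells. Its differences were -1.31 and 0.06. Phlda2's FPKM lay above its own upper bound in all 4 libraries, so its level is uncertain. In the case of Mest and of Phlda2 the treated p53+/+ library was the lowest of the 4.

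Snrpn, which encodes a splicing protein of the small nuclear ribonucleoproteins and is expressed from the paternal copy, had 58.9 and 25.1 FPKM in p53+/+ cells and 56.7 and 40.5 FPKM in p53-/- cells. Its differences were -1.20 and -0.48, so p53-/- cells moved the same way by less than the step that was counted. The authors' table marks Snrpn's main transcript as having low data in all 4 libraries.

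Slc22a18, a maternally expressed gene for a transporter-like protein, climbed from 2.81 FPKM to 9.77 FPKM in p53+/+ cells. It had 3.54 and 2.77 FPKM in p53-/- cells. The rise was 3.48-fold, with a difference of 1.499, against -0.27 in p53-/- cells. Magel2, a paternally expressed gene of the MAGE family that takes part in protein recycling from endosomes, had 0.456 and 2.13 FPKM in p53+/+ cells and 0.325 and 0.245 FPKM in p53-/- cells. Its differences were 1.10 and -0.09. For both genes the treated p53+/+ library stood above the other three.

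Just short of the counted step in p53+/+ cells were Gatm, at a difference of 0.97, Cd81 at 0.97 and Ndn at 0.89. Gatm, which encodes the first enzyme of creatine synthesis, had 0.656 and 2.25 FPKM there and 1.14 and 1.11 FPKM in p53-/- cells. Cd81 had 143 and 280.2 FPKM in p53+/+ cells, while p53-/- cells had 76.8 and 85.6 FPKM. Ndn, the gene for the growth-restraining MAGE protein necdin, had 5.84 and 11.7 FPKM in p53+/+ cells, while p53-/- cells had 11.9 and 12.5 FPKM. On the other side, Ube3a was at -0.79 and Grb10 at -0.75.

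The stretches before the start are shown for genes that fell (Mest, Snrpn, Phlda2) or rose (Slc22a18, Magel2) with Adriamycin in p53+/+ cells. For each gene the window with most hexamers (defined below), then most CpG pairs, was printed. They are RefSeq sequence of build GRCm38.p6, 250 bases before to 10 bases after an annotated start, 5′ to 3′ on the gene's strand. Capitals mark TGCCGC, or GCGGCA on the other strand, the letters that ZFP57 is known to bind when methylated. The windows lie at chr6:30737800-30738059 (Mest, plus strand), chr7:60005190-60005449 (Snrpn, minus), chr7:143502515-143502774 (Phlda2, minus), chr7:143473539-143473798 (Slc22a18, plus) and chr7:62376729-62376988 (Magel2, plus).
Mest: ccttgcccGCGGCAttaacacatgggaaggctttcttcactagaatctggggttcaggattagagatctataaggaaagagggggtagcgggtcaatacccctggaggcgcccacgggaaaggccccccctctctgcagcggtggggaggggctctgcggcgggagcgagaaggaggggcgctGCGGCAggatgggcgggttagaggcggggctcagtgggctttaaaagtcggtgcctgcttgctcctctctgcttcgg
Snrpn: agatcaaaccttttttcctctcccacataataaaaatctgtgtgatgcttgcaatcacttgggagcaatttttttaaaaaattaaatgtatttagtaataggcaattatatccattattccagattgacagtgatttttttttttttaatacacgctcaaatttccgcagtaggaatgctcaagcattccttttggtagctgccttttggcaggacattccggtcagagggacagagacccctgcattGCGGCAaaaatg
Phlda2: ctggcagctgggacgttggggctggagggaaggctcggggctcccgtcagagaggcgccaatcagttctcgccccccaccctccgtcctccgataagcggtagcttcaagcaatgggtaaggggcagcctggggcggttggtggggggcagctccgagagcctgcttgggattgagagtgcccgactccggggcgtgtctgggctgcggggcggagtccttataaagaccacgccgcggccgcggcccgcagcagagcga
Slc22a18: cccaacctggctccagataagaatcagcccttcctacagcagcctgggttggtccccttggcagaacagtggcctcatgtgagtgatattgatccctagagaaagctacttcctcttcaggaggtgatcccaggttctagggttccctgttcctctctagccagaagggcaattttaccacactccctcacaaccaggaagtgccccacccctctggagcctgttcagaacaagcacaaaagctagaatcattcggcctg
Magel2: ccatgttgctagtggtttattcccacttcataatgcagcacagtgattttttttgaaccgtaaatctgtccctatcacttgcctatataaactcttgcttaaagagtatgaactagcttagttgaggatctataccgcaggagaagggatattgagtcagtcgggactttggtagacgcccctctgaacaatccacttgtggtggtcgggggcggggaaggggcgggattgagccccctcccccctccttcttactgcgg
Mest's window held the hexamer 2 times and Snrpn's 1 time, and the windows of Phlda2, Slc22a18 and Magel2 did not hold it. The printed window was picked from 3 for Mest and 4 for Snrpn, while the other genes had 1 each. That choice favours genes with several windows, so nothing is read from the hexamer counts of genes that fell and rose. The number of CpG pairs was 15 for Mest, 4 for Snrpn, 22 for Phlda2, 1 for Slc22a18 and 8 for Magel2.

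Among the 30 imprinted genes with a window in the RefSeq promoter table (250 bases before to 50 after a start), 9 held the hexamer on either strand, or 30%. Over all 27025 genes of the table the share was 13.1%. The 9 were Igf2, Meg3, Zim1, Mest, Copg2, Snrpn, Grb10, Plagl1 and Nnat. Counted by window instead of by gene, the shares were 22.7% of 44 and 11.6% of 32851. The members' windows had a median of 14.5 CpG pairs, against 7 over all windows, so the members' windows were also richer in the CpG that the hexamer contains. The p53 response element, searched on both strands as a pair of the known consensus half-sites with a spacer of 0 to 13 bases, was in no member's window and in 20 genes' windows (0.0740%) of the table. Windows for H19, Cdkn1c, Nap1l4, Peg10, Sgce, Nespas and Impact were not used.

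In p53-/- cells Adriamycin moved no imprinted gene by the counted step. The members' differences ran from -0.55 (Peg10) to 0.27, with a median of -0.02 against 0.07 for all genes. Few genes of any kind moved there, 0.376% upward and 0.461% downward.

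Set against each other, the response in p53+/+ cells was higher than that in p53-/- cells by the counted step for Slc22a18 (1.77) and Magel2 (1.19). It was lower for Mest (-1.62), Phlda2 (-1.37) and Peg10 (-1.13). These are 2 higher and 3 lower of 33, where all genes gave 10.4% higher and 3.29% lower. Among genes with usable status and a main transcript within its own bounds, 2 of 29 members were higher and 1 lower (Mest). Over all such genes the shares were 10.8% and 3.03%. Magel2, past the filter through the treated p53+/+ library alone, could not count as lower here. The members' median was 0.06 and that of all genes -0.01. Higher values made up 76.0% of the counted genes, or 65.4% after quantile normalization, under which Magel2 was at 0.86. Snrpn, at -0.72, and Ube3a, at -0.95, were short of the step.

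**Figure D2:**
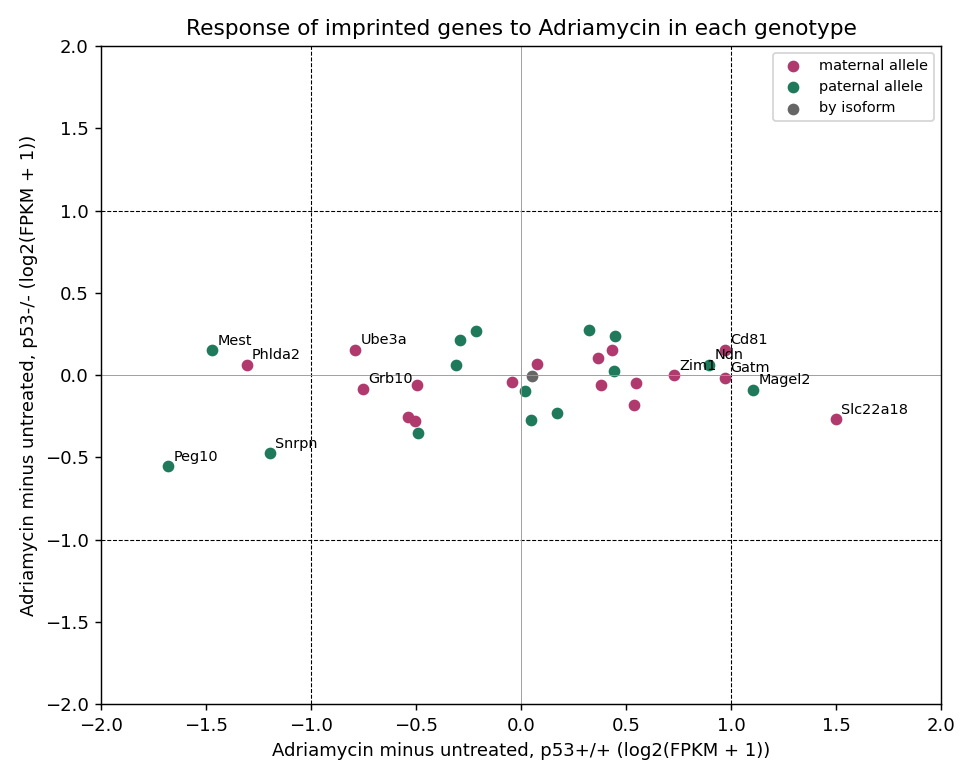
Difference in log2(FPKM + 1) between Adriamycin and untreated for the 33 imprinted genes past the filter, in p53+/+ cells (horizontal axis) and p53-/- cells (vertical axis), with dashed lines at 1 and -1 and colours for the expressed allele. The points spread from -1.68 to 1.499 along the horizontal axis and from -0.55 to 0.27 along the vertical axis.

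ES cell markers moved with the same treatment. Their sum was 4519 FPKM before and 3055 FPKM after Adriamycin in p53+/+ cells, while p53-/- cells had 3189 and 2798 FPKM. In p53+/+ cells 3 of the 11 fell (Nanog, Zfp42 and Tfcp2l1) and all 11 differences were below 0, with a median of -0.90. Over all genes 2.78% fell and 11.4% rose, with a median of 0.05. In untreated p53-/- cells 1 marker (Tfcp2l1) was lower than in p53+/+ cells and 0 were higher, beside 3.14% and 3.52% of all genes. The markers' median there was -0.67, against -0.05 for all genes. The part of the ES cell markers in the falls of Mest, Peg10, Phlda2 and Snrpn was not tested. In RNA from a whole culture, fewer cells of a type and less RNA per cell cannot be told apart.

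Without Adriamycin, p53-/- cells had more RNA of Igf2, H19, Dlk1 and Meg3 than p53+/+ cells. These were 4 higher and 0 lower of 33, where all genes gave 3.52% higher and 3.14% lower. The median difference was 0.25 for the members and -0.05 for all genes. The 4 genes are the neighbours Igf2 and H19 of chromosome 7 and Dlk1 and Meg3 of chromosome 12, and each pair holds 1 paternally and 1 maternally expressed gene. This comparison shares the untreated p53+/+ library with the p53+/+ response above.

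Igf2, the gene for insulin-like growth factor 2, had 1.795 FPKM before and 1.83 FPKM after Adriamycin in p53+/+ cells, and 27.5 and 25.7 FPKM in p53-/- cells. The level was 15.3-fold higher in untreated and 14.0-fold higher in treated p53-/- cells, with differences of 3.35 and 3.24. H19, the noncoding RNA that shares enhancers with Igf2 and is expressed from the opposite copy, had 8.34 and 12.6 FPKM in p53+/+ cells and 34.4 and 30.2 FPKM in p53-/- cells. H19's transcript carries no name in the tables used and was matched by its position. The fold was 4.13 without and 2.41 with Adriamycin. Both p53-/- libraries lay above both p53+/+ libraries for each of these neighbours. The microRNA that is cut from H19, Mir675, was listed at 0 in every library, which were made from poly(A) RNA.

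Meg3, a maternally expressed noncoding RNA, had 17.2 and 22.4 FPKM in p53+/+ cells and 36.2 and 39.0 FPKM in p53-/- cells. Dlk1, the paternally expressed gene for a membrane protein related to Notch ligands, had 0.493 and 1.03 FPKM in p53+/+ cells, while p53-/- cells had 2.10 and 2.65 FPKM. The untreated differences were 1.03 and 1.05, just past the step, and those with Adriamycin were 0.77 and 0.84. With a pseudocount of 5 FPKM the untreated differences were 0.89 for Meg3 and 0.37 for Dlk1, which left 2 of the 4 genes, Igf2 and H19, past the step. In these genes, too, both p53-/- libraries were above both p53+/+ libraries.

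Fibroblast markers differed between the genotypes in the same direction as these 4 genes. The 15 markers summed to 12.95 and 21.9 FPKM in p53+/+ cells and to 420 and 359 FPKM in p53-/- cells. Of the 15, 11 were below 1 FPKM in untreated and 10 in treated p53+/+ cells, and 1 was in each p53-/- library. In each p53+/+ library 4 of the 15 markers were at 0, Col3a1 among them, and in the p53-/- libraries none was. Col1a1, a collagen of fibroblasts, had 0.727 and 5.03 FPKM in p53+/+ cells and 151 and 117 FPKM in p53-/- cells. Of the 14 fibroblast markers past the filter, 8 passed through the p53-/- libraries alone, so they could not count as lower. The 15 primitive endoderm markers summed to 308 and 342 FPKM in p53+/+ cells and to 261 and 270.5 FPKM in p53-/- cells. Of the 13 past the filter, 8 were lower and 0 higher in untreated p53-/- cells, with a median of -1.27. All genes gave 3.14% lower and 3.52% higher. With Adriamycin 9 of the 13 were lower and 0 higher, beside 13% and 6.73% of all genes. Among the 13, 6 passed the filter through the p53+/+ libraries alone, so they could not count as higher. Trophoblast and neural markers past the filter, 6 and 4 genes, had median untreated genotype differences of 1.20 and 1.09. In each of these lists 1 gene was below 0, and the median of all genes was -0.05. The part of these cell types in the levels of Igf2, H19, Dlk1 and Meg3 was not tested.

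**Figure D3:**
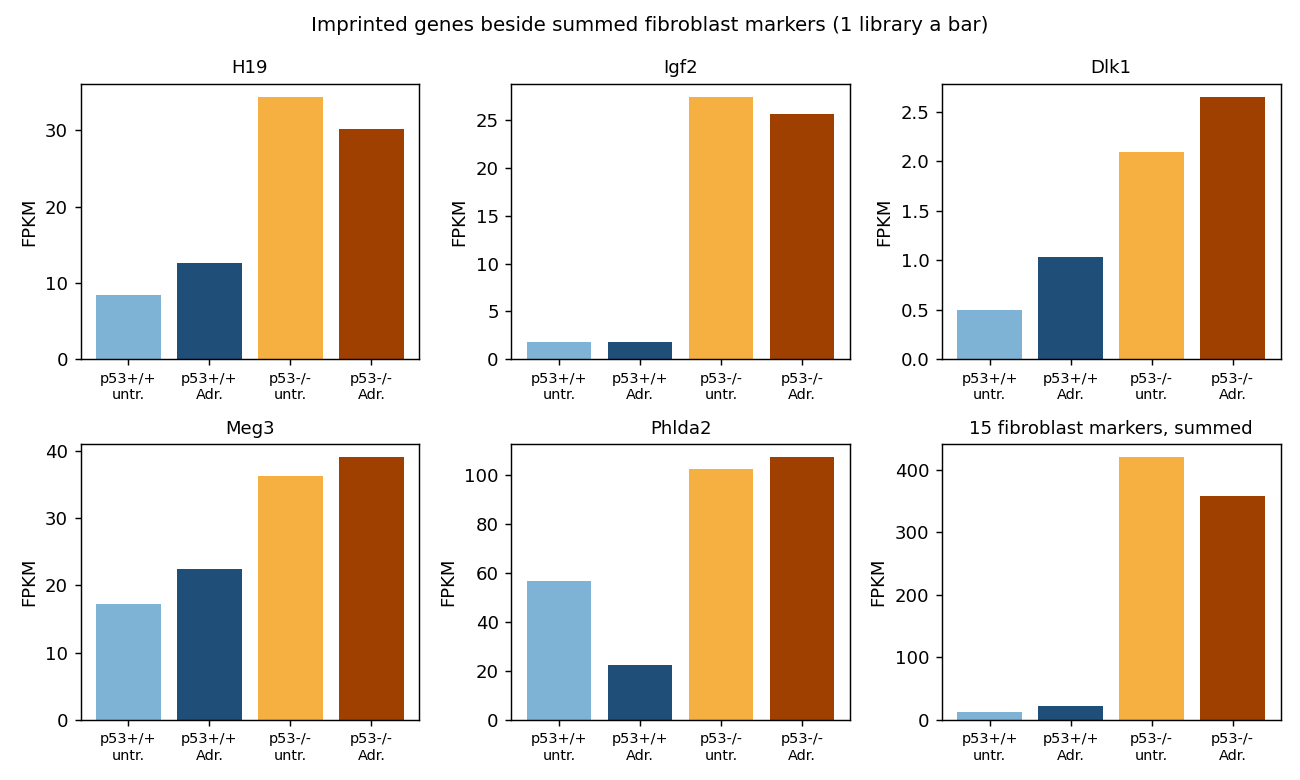
FPKM of H19, Igf2, Dlk1, Meg3 and Phlda2 and the summed FPKM of 15 fibroblast markers, with 1 bar for each library and every axis starting at 0. The p53-/- bars are above the p53+/+ bars in all 6 panels, and the marker sum is 12.95 and 21.9 FPKM against 420 and 359 FPKM.

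With Adriamycin, 6 of 33 imprinted genes were higher in p53-/- cells (Igf2, H19, Phlda2, Mest, Peg10 and Nnat). Another 3 were lower (Cd81, Slc22a18 and Magel2). All genes gave 6.73% higher and 13% lower, and the median was 0.21 for the members and -0.02 for all genes. Among genes with usable status and a main transcript within its own bounds, 4 of 29 members were higher and 3 lower. Over all such genes the shares were 6.51% and 13.5%. Higher values made up 34.0% of the counted genes overall. After quantile normalization that share was 44.3% and the median over all genes 0.10. Phlda2 differed by 2.21, Mest by 2.00, Peg10 by 1.14 and H19 by 1.21. Cd81 differed by -1.70, Slc22a18 by -1.52 and Magel2 by -1.33. Magel2 passed the filter through the treated p53+/+ library alone, so it could only count as lower. Since this comparison shares the treated p53+/+ library with the p53+/+ response, the values of Phlda2, Mest, Peg10, Slc22a18 and Magel2 in it are not a separate observation. In the untreated libraries those 5 differed between genotypes by 0.84, 0.38, 0.01, 0.25 and -0.14.

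Nnat, a paternally expressed gene for a small membrane protein of the endoplasmic reticulum, had 6.94 and 5.39 FPKM in p53+/+ cells and 11.4 and 11.97 FPKM in p53-/- cells. Its genotype difference was 0.65 without and 1.02 with Adriamycin. Cd81's genotype difference was -0.88 without Adriamycin, short of the step, and -1.70 with it.

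**Figure D4:**
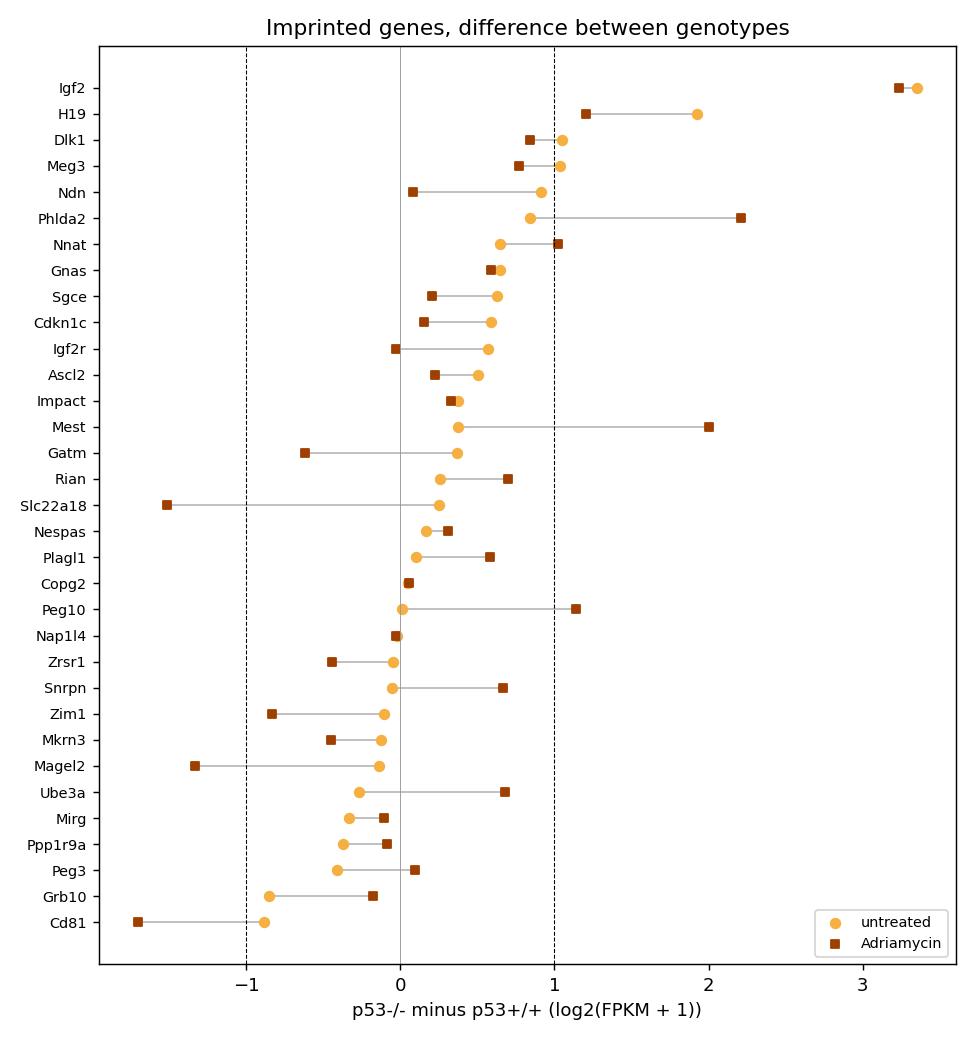
Difference in log2(FPKM + 1) between p53-/- and p53+/+ cells for the 33 imprinted genes past the filter, untreated (circles) and with Adriamycin (squares), with dashed lines at 1 and -1. Igf2 stands farthest right in both states (3.35 and 3.24), and Cd81 farthest left (-0.88 and -1.70).

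Neighbours within a cluster did not all do the same. In the Kcnq1ot1 domain Phlda2 fell in p53+/+ cells while Slc22a18 rose. The cell cycle inhibitor gene Cdkn1c had 8.63 and 11.5 FPKM in p53+/+ cells and 13.5 and 12.9 FPKM in p53-/- cells, and Ascl2, a transcription factor gene of the trophoblast, ran from 4.003 to 6.90 FPKM. Nap1l4, a histone chaperone gene, stayed between 81.2 and 86.9 FPKM, although its FPKM lay outside its own bounds in all 4 libraries. Kcnq1ot1, the RNA that controls the domain, was below the filter in every library.

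In the Igf2r domain the maternally expressed receptor gene Igf2r, whose product clears insulin-like growth factor 2, had 16.2 and 24.1 FPKM in p53+/+ cells and 24.5 and 23.6 FPKM in p53-/- cells. Airn, its antisense RNA, was at most 0.134 FPKM. The transcripts of Igf2r and Airn overlap over 28396 bases in build mm9. Whether reads were counted by strand is not given in the sources used here, so reads from overlapping genes cannot be told apart.

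Rian and Mirg, noncoding RNAs that lie beyond Meg3 and host small RNAs, differed less between untreated genotypes, by 0.26 and -0.33. Rian had 14.0 and 9.65 FPKM in p53+/+ cells and 17.02 and 16.3 FPKM in p53-/- cells. Mirg had 5.93 and 3.87 FPKM in p53+/+ cells and 4.49 and 3.53 FPKM in p53-/- cells. Between Meg3 and Mirg the tables list 64 short RNAs, 57 of them microRNAs, and all 64 were at 0 in the 4 libraries.

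Peg10 and Sgce begin 102 bases apart and are both expressed from the paternal copy. While Peg10 fell in treated p53+/+ cells, Sgce, the gene for epsilon-sarcoglycan, had 2.21 FPKM untreated and 3.36 FPKM treated, a difference of 0.44. In p53-/- cells Sgce had 3.94 and 4.02 FPKM. Ppp1r9a, further along and encoding the actin-binding protein neurabin, ran from 1.497 to 2.85 FPKM.

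Mest and Copg2 overlap at their ends over 913 bases. Copg2, a coatomer gene, was between 22.0 and 23.6 FPKM in all 4 libraries, next to the 2.99-fold fall of Mest in p53+/+ cells. Peg3, a zinc finger gene, and Usp29 begin 322 bases apart, and Peg3 ran from 3.30 to 4.70 FPKM and Usp29 from 0.213 to 0.767 FPKM. Their neighbour Zim1 also passed the filter through the treated p53+/+ library alone, with 1.04 FPKM there against 0.231, 0.146 and 0.146 FPKM in the others.

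In the Snrpn domain, Snrpn fell and Magel2 rose in p53+/+ cells although both are expressed from the paternal copy. Mkrn3, a ring finger gene, ran from 2.40 to 3.64 FPKM. Ube3a, the ubiquitin ligase gene that is imprinted in neurons, had 13.3 and 7.25 FPKM in p53+/+ cells and 10.9 and 12.2 FPKM in p53-/- cells. Snurf, an upstream reading frame of the Snrpn locus that the tables list apart and that was not summed into Snrpn, dropped from 4.04 to 1.46 FPKM in p53+/+ cells. It had 3.44 and 2.39 FPKM in p53-/- cells. Snurf's transcript spans nearly the same bases as Snrpn's main transcript, so reads may be divided between them. Its drop is therefore not a separate observation.

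Of the single genes, Grb10, an adaptor that restrains insulin signalling, had 40.7 and 23.7 FPKM in p53+/+ cells and 22.1 and 20.9 FPKM in p53-/- cells, so untreated p53+/+ cells stood above the other three. Impact, an inhibitor of the stress kinase GCN2, ran from 26.9 to 42.8 FPKM. Plagl1, a zinc finger gene, ran from 0.843 to 1.76 FPKM and Zrsr1, an intronless copy of a splicing factor gene, from 3.54 to 5.17 FPKM.

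By expressed allele, all 17 maternally expressed genes passed the filter and 15 of the 19 paternally expressed ones did, with Gnas counted apart because its alleles differ by transcript. In p53+/+ cells Adriamycin raised 1 and lowered 1 of the 17 maternally expressed genes, and raised 1 and lowered 3 of the 15 paternally expressed ones, where 11.4% of all genes rose and 2.78% fell. The 1 paternal rise was Magel2, which passed the filter through the treated p53+/+ library alone and could only count as a rise. In untreated cells 2 genes of each kind were higher in p53-/- cells, where 3.52% of all genes were. The medians were 0.37 and 0.02 for the p53+/+ response and 0.25 and 0.17 for the untreated genotype difference, maternal first. No difference between the allele groups was tested.

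For 14 members the tables give several transcripts, among which Cufflinks divides reads that fit more than 1. Igf2's transcript NM_001122737 made up 68.4% of the gene in untreated p53+/+ cells, 26.9% in treated ones and 72.5% and 69.4% in p53-/- cells, with 1.23, 0.493, 19.9 and 17.8 FPKM. NM_010514 had 0.462 and 0.893 FPKM in p53+/+ cells and 4.31 and 5.10 FPKM in p53-/- cells. NM_001122736 had 0.105 and 0.446 FPKM in p53+/+ cells and 3.24 and 2.75 FPKM in p53-/- cells. All 3 transcripts of Igf2 were thus higher in both p53-/- libraries than in either p53+/+ library.

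Slc22a18's rise came with NM_008767, at 1.11 and 9.77 FPKM in p53+/+ cells and 1.61 and 2.38 FPKM in p53-/- cells. The other transcript, NM_001042760, which starts further into the gene, had 1.70 FPKM in the untreated p53+/+ library. It had 1.92 and 0.389 FPKM in the p53-/- libraries, and its upper bound in treated p53+/+ cells was 0.0557 FPKM.

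Gnas encodes the stimulatory G protein alpha subunit, and its promoters give transcripts of different allele use. NM_201616, from the promoter of the alpha subunit, had 33.4 and 42.8 FPKM in p53+/+ cells and 78.4 and 52.4 FPKM in p53-/- cells, a difference of 1.21 between untreated genotypes. The summed difference was 0.65. NR_003258, which starts upstream of it, had 74.3 and 69.2 FPKM in p53+/+ cells and 92.8 and 118 FPKM in p53-/- cells. NM_022000, which starts farthest upstream and overlaps Nespas, had 1.55 to 2.14 FPKM, and Nespas, the paternal antisense RNA, had 1.08 and 0.477 FPKM in p53+/+ cells and 1.34 and 0.832 FPKM in p53-/- cells. NM_001077510 had 0.296 FPKM in the untreated p53+/+ library, 0.721 FPKM in the treated p53-/- library, and upper bounds of 0.0498 and 0.0637 FPKM in the other libraries.

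In 3 further genes a transcript passed the step where the sum did not. Cdkn1c's NM_001161624 had 2.05 and 3.83 FPKM in p53+/+ cells and 4.58 and 2.14 FPKM in p53-/- cells, a response difference of 1.49. The second, NM_009876, which has the same ends, had 6.57, 7.68, 8.92 and 10.8 FPKM in the same order. Nnat's NM_180960 had 1.21 and 1.44 FPKM in p53+/+ cells and 2.04 FPKM in the untreated p53-/- library, with an upper bound of 0.0939 FPKM in treated p53-/- cells. Ube3a's NM_001033962 had 9.47 and 4.78 FPKM in p53+/+ cells and 7.77 and 8.83 FPKM in p53-/- cells, a response difference of -1.02.

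**Figure D5:**
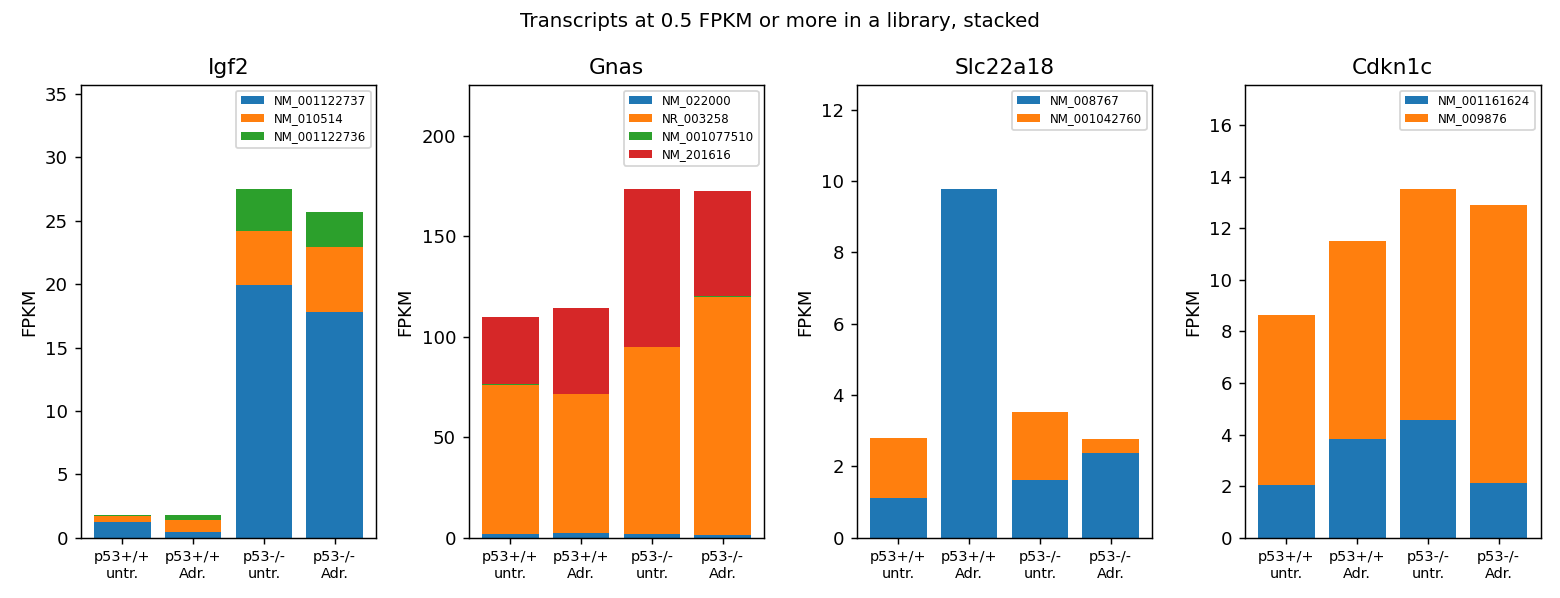
FPKM of the transcripts of Igf2, Gnas, Slc22a18 and Cdkn1c that reach 0.5 FPKM in a library, stacked, with 1 bar for each library. The Slc22a18 bar of treated p53+/+ cells is made up of NM_008767 (9.77 FPKM), and the Igf2 bars of p53-/- cells mostly of NM_001122737 (19.9 and 17.8 FPKM).

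A list of 43 other imprinted genes was set beside the 37, of which 41 had a transcript and 26 passed the filter. In p53+/+ cells 2 of the 26 rose with Adriamycin and 2 fell, beside 11.4% and 2.78% of all genes. In p53-/- cells 0 rose and 0 fell. The falls were those of Sfmbt2 and of Snurf, whose transcript spans nearly the same bases as Snrpn's main transcript. Snurf's fall is thus not separate from that of Snrpn among the 37. Osbpl5, which lies in the Kcnq1ot1 domain and encodes a lipid-binding protein, rose from 1.20 to 9.22 FPKM in p53+/+ cells, and had 2.11 and 2.28 FPKM in p53-/- cells. Begain, near Dlk1, rose from 0.983 to 10.7 FPKM in p53+/+ cells, while p53-/- cells had 1.09 and 1.23 FPKM. Sfmbt2, a Polycomb gene, had 6.67 and 1.35 FPKM in p53+/+ cells and 6.48 and 4.76 FPKM in p53-/- cells.

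Untreated p53-/- cells had 6 of these 26 genes higher and 0 lower, beside 3.52% and 3.14% of all genes. They were Xlr3b, Xlr4b, Xlr4c, H13, Atp10a and Dcn, of which the Xlr genes are near-identical copies on the X chromosome among which reads may be divided. Dcn, Atp10a, Xlr4b and Xlr4c passed the filter through the p53-/- libraries alone, so they could not count as lower, and nothing is read from the count of 6. Xlr3b had 1.76 and 2.49 FPKM in p53+/+ cells and 11.8 and 10.97 FPKM in p53-/- cells. H13, a signal peptide peptidase gene, had 6.40 and 8.25 FPKM in p53+/+ cells and 14.3 and 14.0 FPKM in p53-/- cells. Dcn, which is also a matrix gene of fibroblasts, was listed at 0 in each p53+/+ library and at 2.96 and 2.82 FPKM in p53-/- cells. Zdbf2, a zinc finger gene, was at 6.56 and 3.61 FPKM in p53+/+ cells and 2.99 and 2.32 FPKM in p53-/- cells.

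Among 20 genes that set or protect imprints, all past the filter, Adriamycin lowered 4 and raised 0 in p53+/+ cells, with a median of -0.53. Over all genes 2.78% fell and 11.4% rose, with a median of 0.05. Trim28, the corepressor that ZFP57 recruits, went from 989 to 469 FPKM, and the methylation cofactor Dnmt3l from 404 to 192 FPKM. The methyltransferase gene Dnmt3a went from 14.8 to 6.69 FPKM and the demethylation gene Tet2 from 30.8 to 10.4 FPKM. In p53-/- cells 0 rose and 0 fell, with a median of -0.10 against 0.07 for all genes. Zfp57 itself had 148 and 77.7 FPKM in p53+/+ cells and 92.4 and 69.4 FPKM in p53-/- cells, a difference of -0.92 in p53+/+ cells.

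Between the genotypes, Dppa3, whose product guards maternal marks in the early embryo, had 2.45 and 0.956 FPKM in p53+/+ cells and 36.0 and 44.6 FPKM in p53-/- cells. Dppa3 was higher in p53-/- cells in both states. Tet2 was lower in the untreated ones, at 14.7 FPKM, and Dnmt3a was higher with Adriamycin, by 1.39. Untreated, 1 of the 20 was higher and 1 lower, beside 3.52% and 3.14% of all genes. With Adriamycin 2 were higher and 0 lower, beside 6.73% and 13%. Response differences of Dppa3 (-1.12) and of the remodeller gene Hells (-1.25) passed the step. These are 2 lower and 0 higher of 20, beside 3.29% and 10.4% of all genes. Whether these levels bear on the imprinted genes was not tested, and methylation was not measured here.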

How the data were processed

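RNA with a poly(A) tail from 4 mouse ES cell cultures was sequenced, 1 library a group. The labels name an exome enrichment kit. Per the submitters' processing notes, CASAVA 1.8.1, TopHat2 2.0.5, TopHat and Cufflinks were used with build mm9. Their roles and order, the annotation and the use of strand are not given in the sources used here. Per the file headers, the authors deposited the FPKM of 30769 RefSeq transcripts with a lower and an upper bound, a status, and a coverage, the mean read depth per base. The bounds cover counting and read assignment within a library, not variation between cultures. Coverage times length, summed, gave the depth.

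Transcripts were named from RefSeq's gene table (GRCm38.p6, names only) and, for 184, from GENCODE M21, and 361 had no name and were left out. H19's transcript was matched by position: its end lies 72622 bases from Igf2 and 999 from Mir675, as in the reference. Nespas is listed as Gnasas1. With Python 3.11.15, pandas 2.3.3 and numpy 2.4.6, FPKM was summed by gene and compared as log2(FPKM + 1), with a pseudocount of 1. The filter was 1 FPKM in at least 1 library, and the step was 1, which is 2-fold in FPKM + 1. With 1 library a group no test, SD or p-value was possible. The procedure was tested on simulated data. Members past the step in any of the 5 comparisons, or with a transcript past it where the sum was not, are given in every library, the others by range or value. Of each other list, up to 6 genes with the largest difference and 5 FPKM or more were eligible to be named. Zfp57, Snurf, Dcn, Atp10a, Xlr4b and Xlr4c were named after their values were seen. The members and lists were chosen with earlier results of these data known. The alternatives changed the pseudocount, filter, scaling, transcript summing, step, and use of the bounds, and 2 were added after the data were seen. Markers of trophoblast and of neural cells were examined as well. In untreated p53-/- cells 4 of 6 trophoblast markers past the filter were higher and 0 lower. Of 4 neural markers past the filter, 2 were higher and 0 lower. All genes gave 3.52% higher and 3.14% lower. Of the 2 higher neural markers, 1 (Nes) passed the filter through the p53-/- libraries alone. Another 1 of the 4 passed through the p53+/+ libraries alone.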

Additional observations from a re-analysis of the deposited data

How the results depend on the processing

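No change of setting reversed a counted direction. In p53+/+ cells 2 of 33 imprinted genes rose with Adriamycin as reported, and 4 did with a pseudocount of 0.1 FPKM. The count was 0 with a pseudocount of 5 FPKM and 6 with a step of 1.5-fold in FPKM + 1. With a filter of 5 FPKM it was 1 of 23. Over all 13015 genes 1481 rose as reported, 2154 and 627 with those pseudocounts and 2825 with that step. With the filter of 5 FPKM 1007 of 9366 genes rose. The count that fell, 4 as reported, was 1 of 29 among genes with usable status and a main transcript within its own bounds. Phlda2, Peg10 and Snrpn are left out there, and only Mest remained. Of all such genes 2.47% fell. For untreated p53-/- against p53+/+ cells, 4 higher became 2 with a pseudocount of 5 FPKM and 10 with the 1.5-fold step. With that step 0 lower became 2. Over all 13015 genes 458 higher became 137 and 1340, and 409 lower became 1433 with that step. With Adriamycin, 6 higher became 12 with the 1.5-fold step and 4 of 29 within own bounds. The 3 lower became 1 with a pseudocount of 5 FPKM and 5 with the 1.5-fold step. Over all 13015 genes 876 higher became 2307 with that step, and 1697 lower became 795 and 3050. Within own bounds 6.51% of genes were higher. For the difference of responses, 2 higher became 4 with a pseudocount of 0.1 FPKM, 1 with 5 FPKM and 8 with the 1.5-fold step. Of all 13015 genes, 1357 higher became 1875, 612 and 2586. With a filter of 5 FPKM 1 of 23 members was higher, beside 959 of 9366 genes. After quantile normalization 1 of 32 members was higher, beside 1152 of 12909 genes. The 3 lower became 1 of 29 within own bounds and 6 with the 1.5-fold step, beside 3.03% and 1796 of 13015 genes. The cause of these shifts was not tested beyond the construction of each setting.

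Of the 24 counted differences of single genes, the pseudocount of 5 FPKM took 8 below the step, those of Slc22a18, Meg3, Dlk1, Magel2 and Nnat, and quantile normalization took 2, both of Magel2. Leaving out H19, or adding Snurf to Snrpn and an unnamed transcript to Meg3, both chosen after the data were seen, kept every count within 1.5 times. No paired analysis was possible because each group has 1 library. Low FPKM (Magel2, Dlk1) and overlapping transcripts limit these values, and the spread between cultures is unknown.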
